A study of Mus musculus with 30 samples.

Results

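Prostaglandin E2 (PGE2) synthesis, reception and breakdown were followed in the hypothalamus of newborn female mice through 10 genes, namely the cyclooxygenases Ptgs1 and Ptgs2, the PGE synthases Ptges, Ptges2 and Ptges3, the PGE2 receptors Ptger1, Ptger2, Ptger3 and Ptger4, and the PGE2-degrading enzyme Hpgd. Members were chosen by symbol: every probe set whose gene symbol in the platform's probe-to-gene table was one of these 10. This gave 15 probe sets of 8 genes among the 45037 probe sets of the array without its controls, where 18193 genes had a probe set of their own. No probe set carried the symbol Ptgs1 in the table used, so Ptgs1 was not analysed here. The 2 probe sets listed for Ptges3 were also listed for the pseudogene Ptges3-ps and could not be assigned to either, so they are described apart and enter no count of members. The EB mice received 7.5 μg estradiol benzoate (EB, an esterified estradiol) subcutaneously in 20 μl peanut oil on the day of birth, and the Oil mice received the oil alone. All were C57BL/6J females of about 1.4 g, and the whole hypothalamus of each was taken 1, 3, 6, 12 or 24 h later, with 3 arrays for each of the 10 groups of treatment and time. The question was which transcripts respond to estrogen given in the period when the rodent brain is sexually differentiated. The single dose, the female hosts and the whole, undissected hypothalamus limit what the EB group models. In such bulk tissue fewer cells of a type and less RNA per cell cannot be told apart.

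PGE2 is made in steps. Phospholipases free arachidonate from membranes, a cyclooxygenase turns it into prostaglandin H2, and a PGE synthase isomerises this to PGE2. Released PGE2 acts on G protein-coupled receptors, of which those encoded by Ptger2 and Ptger4 raise cyclic AMP, that of Ptger3 mostly lowers it, and that of Ptger1 raises calcium. In the preoptic area of newborn rats, estradiol is known to induce cyclooxygenases and PGE2 and thereby to masculinise dendritic spines and later sexual behaviour, which makes these genes a natural set to examine after neonatal EB in the mouse.

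The promoters of 4 members are shown. Ptger2, Hpgd and Ptges2 were the kept members called over time, and Ptgs2 is the inducible cyclooxygenase. The sequences are RefSeq's, on build GRCm38.p6, from 250 bases before to 50 bases after the annotated start, and 9 of the 10 members could be matched to one. All 4 are written in the direction of transcription and lie on the plus strand, Ptger2 at chr14:44987861-44988160, Hpgd at chr8:56294302-56294601, Ptges2 at chr2:32395640-32395939 and Ptgs2 at chr1:150099781-150100080. Capitals mark the motifs found.
Ptger2: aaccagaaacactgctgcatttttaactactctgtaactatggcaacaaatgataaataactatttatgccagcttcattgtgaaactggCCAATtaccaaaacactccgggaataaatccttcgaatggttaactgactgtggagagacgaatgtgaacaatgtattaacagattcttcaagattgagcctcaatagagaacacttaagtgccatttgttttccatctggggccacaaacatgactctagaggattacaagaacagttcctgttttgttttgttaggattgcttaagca
Hpgd: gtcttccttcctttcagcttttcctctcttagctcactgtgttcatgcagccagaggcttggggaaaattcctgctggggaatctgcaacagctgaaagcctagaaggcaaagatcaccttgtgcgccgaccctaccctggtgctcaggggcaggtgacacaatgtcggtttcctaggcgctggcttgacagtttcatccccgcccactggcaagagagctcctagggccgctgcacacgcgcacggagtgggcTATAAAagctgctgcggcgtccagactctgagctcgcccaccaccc
Ptges2: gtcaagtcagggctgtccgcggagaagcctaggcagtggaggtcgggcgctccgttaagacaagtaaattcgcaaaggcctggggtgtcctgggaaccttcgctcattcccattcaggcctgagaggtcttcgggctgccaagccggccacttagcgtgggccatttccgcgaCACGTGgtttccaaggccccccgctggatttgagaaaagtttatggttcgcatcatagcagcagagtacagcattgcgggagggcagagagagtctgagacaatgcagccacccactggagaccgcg
Ptgs2: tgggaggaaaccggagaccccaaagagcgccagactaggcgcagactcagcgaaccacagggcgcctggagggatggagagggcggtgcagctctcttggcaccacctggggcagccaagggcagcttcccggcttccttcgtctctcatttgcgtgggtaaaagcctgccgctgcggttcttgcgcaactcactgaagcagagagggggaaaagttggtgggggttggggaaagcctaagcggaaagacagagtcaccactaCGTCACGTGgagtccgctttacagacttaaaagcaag

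Both strands were searched for the cyclic AMP response element TGACGTCA and its half-site TGACG, the E-box CACGTG, the TATA box TATAAA, the CCAAT box CCAAT, the palindromic estrogen response element and its half-site GGTCA. The Ptger2 promoter held a CCAAT box, at positions -160 to -156 counted from the annotated start. The Hpgd promoter held a TATA box at positions 4 to 9, and the Ptges2 promoter an E-box at positions -77 to -72. In the Ptgs2 promoter a TGACG on the minus strand, at positions 13 to 17, overlapped an E-box at positions 16 to 21. These are matches of letters and not sites of binding. Of 32851 promoters of the same length, 37.4% held a CCAAT box, 13.6% the TATA box, 7.15% the E-box and 20.8% the half-site TGACG. Neither the full cyclic AMP response element, held by 1.79% of promoters, nor the full estrogen response element, held by 0.07%, was in any of the 9 windows. The half-site GGTCA, held by 40.5% of promoters, was found in those of Ptges and Ptgs1. Ptger4 also held a CCAAT box and Ptges3 a TGACG, and no motif was found in the Ptger3 window.

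The arrays reported MAS5 signal on a linear scale, and each was scaled here to the mean of the array medians, 41.3. The deposited medians spanned 28.0 to 66.9. Every 12 h array, with a median of 52.9 or more, was brighter than every array of another time, whose medians reached 44.0. A filter removed the dimmest 40% of probe sets by mean log2 signal and kept 27022. EB and Oil were compared with limma fitted to the 10 groups, and a probe set was called at an adjusted p under 0.05 (Benjamini-Hochberg over the 27022). Of 20 hypothalamic neuron markers 19 were kept, and of 8 pituitary markers none was, 7 having a probe set. The leptomeningeal fibroblast markers stood apart in the 24 h arrays: 17 of the 19 kept fell in EB, with a median log2 fold change of -1.99, and their summed scaled signal was 951 to 2912 in the EB 24 h arrays against 4372 to 5442 in the Oil 24 h arrays. The largest log2 fold changes among them were those of Fmod (-5.53), Osr1 (-3.82) and Slc6a13 (-3.65). Of 6 kept border macrophage markers 4 fell at 24 h (median log2 fold change -2.06), with the largest changes in Lyve1 (-4.23), Pf4 (-2.53) and F13a1 (-2.43). The EB effect differed between times for 10 of the leptomeningeal markers, with the largest F for Slc6a13 (9.16), Fmod (8.64) and Islr (8.54), and for 4 of the macrophage markers, led by Pf4 (13.5), Lyve1 (9.76) and Mrc1 (9.35). The part of these cell types in the results on the PGE2 genes was not tested.

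The members differed in how brightly their probe sets read. One probe set each of Ptges, Ptges2, Ptger2, Ptger3, Ptger4 and Hpgd was kept, with mean scaled signals from 28.7 to 153, and the other 9 probe sets were dim, with means from 1.03 to 14.5. Among the dim ones were both probe sets of the inducible cyclooxygenase Ptgs2 and both of the receptor gene Ptger1, so neither gene entered the calls. Signals of different probe sets depend on their probes and give no order between genes.

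**Figure D1:**
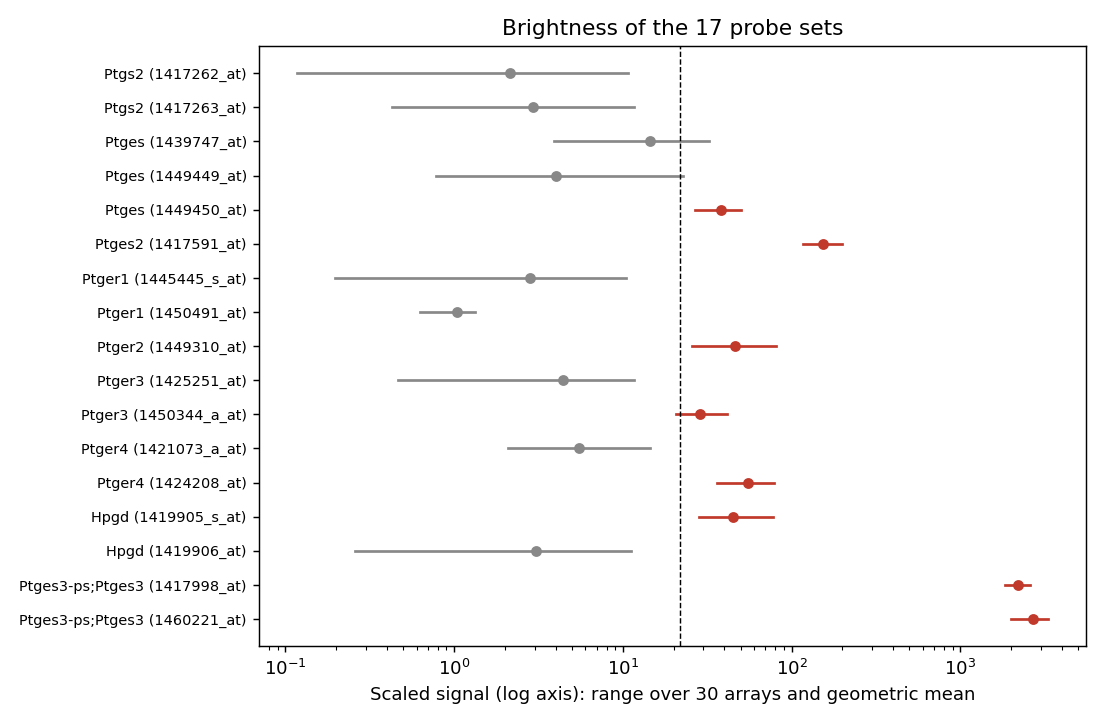
Scaled MAS5 signal (x axis, log scale) of the 15 probe sets of member genes and of the 2 shared by Ptges3 and Ptges3-ps (y axis). Dots are geometric means and lines the range over 30 arrays, red for kept and grey for dim probe sets, and the dashed line is the lowest mean kept, 21.9; both Ptgs2 and both Ptger1 probe sets lie left of it.

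None of the 6 kept members was called between EB and Oil at any time. Of all kept probe sets 0.0037% were called for the 1 h groups, 0.474% for the 3 h groups, 0% for the 6 h groups, 0% for the 12 h groups and 2.77% for the 24 h groups. None of the 6 was called for the EB effect averaged over the times, where 0.074% of all were, or for an EB effect that differed between times, where 0.951% were. At an unadjusted p under 0.05 by limma the count of the 6 kept members was also 0 in each of these 7 comparisons. Of all 27022 probe sets 2332, 3457, 1626, 1774 and 4230 passed at 1, 3, 6, 12 and 24 h. In a limma fit without the filter, the dim Ptges probe set 1439747_at had an unadjusted p of 0.0022 at 1 h and 0.0059 averaged over the times. The dim Ptgs2 probe set 1417263_at had 0.0228 at 24 h, and neither probe set was called after adjustment. The methods' two-factor test on the deposited signals called 0 members too. The 30 EB effects of the kept members at single times lay between -0.30 and 0.43 on the log2 scale, and the lowest adjusted p among them was 0.39. Over the 5 times in order, the members' median log2 fold change was 0.22, 0.09, -0.08, 0.03 and -0.03, beside 0.02, 0.05, 0.02, -0.01 and -0.01 over all kept probe sets. A p that misses the threshold does not show that EB and Oil were alike, and the intervals given below bound each difference.

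**Figure D2:**
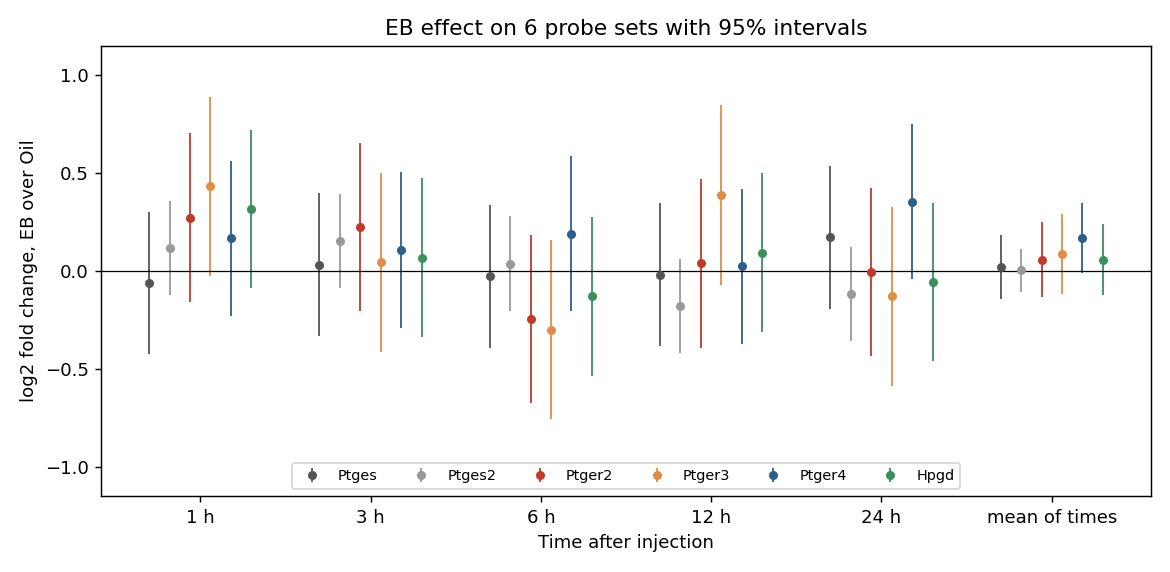
Log2 fold change of EB over Oil (y axis) for the 6 kept probe sets at each time after injection and averaged over the 5 times (x axis), with 95% intervals from limma (3 arrays per group). All point estimates lie between -0.30 and 0.43, and all intervals include 0.

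Ptgs2, the inducible cyclooxygenase that sets the rate of PGE2 synthesis in many tissues, was near the bottom of the array's range. Its probe set 1417262_at had a geometric mean scaled signal of 2.15, brighter than 7% of probe sets, and was under the floor of 1 in 14 of 30 arrays. Its other probe set, 1417263_at, had a geometric mean of 2.94 and was under the floor in 4 arrays. At 12 h 1417263_at read 4.27, 4.68 and 2.21 in the EB arrays and 1.11, 0.824 and 1.53 in the Oil arrays. At 24 h it read 2.72, 1.20 and 1.00 in the EB arrays and 10.2, 5.72 and 3.39 in the Oil arrays. The EB arrays were thus all higher at 12 h and all lower at 24 h, without overlap. In a fit without the filter, adjusted over all 45037 probe sets, neither difference passed (log2 fold change 1.57, 95% interval -0.11 to 3.24, adjusted p = 0.918 at 12 h; -1.97, interval -3.65 to -0.30, adjusted p = 0.301 at 24 h). The 1417262_at signal overlapped between the treatments at 12 h and gave no such order, at 0.404, 3.10 and 3.85 in EB against 2.65, 1.87 and 0.636 in Oil. At 24 h 1417262_at read 0.204, 0.310 and 0.117 in EB and 5.05, 0.806 and 0.345 in Oil. The EB arrays were again all lower, but 5 of the 6 arrays lay under the floor, where the fit gives them no order (log2 fold change -0.78, adjusted p = 0.809). The largest EB effect of 1417262_at was at 1 h, where it read 0.876 to 10.8 in EB and 0.726 to 1.35 in Oil. The treatments overlapped there (log2 fold change 1.86, 95% interval -0.01 to 3.73, adjusted p = 0.661 in the limma fit without the filter). At 1 h 1417263_at gave a log2 fold change of 0.39 (adjusted p = 0.949 in that fit) and overlapped too. Neither Ptgs2 probe set passed in any comparison of EB with Oil.

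Ptges encodes the microsomal, inducible PGE synthase that works with the inducible cyclooxygenase. Its brightest probe set, 1449450_at, read 26.6 to 50.3 over the 30 arrays, and its EB and Oil arrays overlapped at every time. The largest EB effect of this probe set was at 24 h, where the EB arrays read 37.4, 38.3 and 35.5 and the Oil arrays 40.1, 33.3 and 26.6, a log2 fold change of 0.17 (SE 0.18, 95% interval -0.19 to 0.54, adjusted p = 0.704). The averaged effect was 0.02 (interval -0.14 to 0.18).

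A dimmer Ptges probe set, 1439747_at, differed more. At 1 h it read 18.4, 17.01 and 15.7 in the EB arrays and 6.81, 3.91 and 9.90 in the Oil arrays. At 6 h it read 17.6, 14.7 and 17.6 in the EB arrays and 13.6, 12.8 and 8.66 in the Oil arrays. The treatments did not overlap at either of these times, with EB higher, and they overlapped at 3, 12 and 24 h. In the fit without the filter the log2 fold change at 1 h was 1.41 (SE 0.42, adjusted p = 0.387 by limma) and the averaged one 0.56 (SE 0.19, adjusted p = 0.437), so neither was called. The brighter 1449450_at did not show this difference at 1 h (EB 43.1, 37.2 and 37.7, Oil 46.1, 36.6 and 40.7). The remaining Ptges probe set, 1449449_at, had a geometric mean of 4.04.

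Ptges2, which encodes a membrane-associated PGE synthase of the Golgi, was read by 1 probe set, 1417591_at. At 12 h, where its EB effect was largest, it read 179, 157 and 138 in the EB arrays and 181, 198 and 157 in the Oil arrays. The log2 fold change there was -0.18 (SE 0.12, 95% interval -0.42 to 0.06, adjusted p = 0.852), and the averaged one was 0.00 (interval -0.11 to 0.11). The averaged interval of Ptges2 was the narrowest of the 6 members'.

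Ptges3 encodes the co-chaperone p23, also described as a cytosolic PGE synthase. The probe sets shared with Ptges3-ps were among the brightest 2% of the array, with means of 2211 for 1417998_at and 2699 for 1460221_at. At 24 h 1460221_at read 2619, 2766 and 2694 in the EB arrays and 2933, 3067 and 2832 in the Oil arrays, and 1417998_at read 2243, 2233 and 2215 in the EB arrays and 2266, 2293 and 2428 in the Oil arrays. The EB arrays were below the Oil arrays on both, with log2 fold changes of -0.13 (SE 0.08, adjusted p = 0.439) and -0.06 (SE 0.08, adjusted p = 0.768), and neither passed.

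Among the kept probe sets, that of Ptger3, whose product mostly couples to inhibitory G proteins and mediates the febrile action of PGE2 in the preoptic area, had the largest EB effect at a single time. At 1 h its probe set 1450344_a_at read 34.2, 33.8 and 33.1 in the EB arrays and 30.04, 21.5 and 24.1 in the Oil arrays. All EB arrays lay above all Oil arrays, with a log2 fold change of 0.43 (SE 0.22, 95% interval -0.03 to 0.89, adjusted p = 0.601). At 6 h the EB arrays read 21.8, 23.4 and 27.8 and the Oil arrays 20.8, 34.0 and 37.5, and the treatments overlapped. At 12 h the EB arrays read 28.8 to 41.2 and the Oil arrays 22.4 to 29.3, which overlapped (log2 fold change 0.39, SE 0.22, adjusted p = 0.811). The effects of this probe set did not pass the test of a difference between times (F = 2.03, adjusted p = 0.429). The dim Ptger3 probe set 1425251_at had a geometric mean of 4.41. Its treatments overlapped at every time (log2 fold change 0.43, SE 1.04, at 1 h in the fit without the filter).

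Ptger4, a receptor gene whose product raises cyclic AMP, had the largest averaged effect among the kept probe sets. At 24 h its probe set 1424208_at read 56.5, 69.0 and 78.6 in the EB arrays and 50.9, 51.3 and 56.2 in the Oil arrays. EB was higher without overlap, the log2 fold change being 0.36 (SE 0.19, 95% interval -0.04 to 0.75, adjusted p = 0.388). At the 4 earlier times the treatments overlapped, and the mean was higher in EB each time, at 56.0 ± 15.3 in EB against 48.8 ± 5.17 in Oil at 1 h, and at 64.8 ± 7.53 in EB against 63.6 ± 4.399 in Oil at 12 h (SD, n = 3 each). The averaged log2 fold change was 0.17 (SE 0.09, 95% interval -0.01 to 0.35, adjusted p = 0.595). The dim Ptger4 probe set 1421073_a_at, with a mean of 5.48, did not show this. At 12 h it read 3.41, 3.49 and 2.08 in the EB arrays and 5.65, 5.92 and 7.81 in the Oil arrays. EB was lower there without overlap (log2 fold change -1.13, SE 0.61, adjusted p = 0.936 in the fit without the filter), and the averaged log2 fold change was -0.30 (SE 0.27, adjusted p = 0.852).

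Ptger2, the other receptor gene of the cyclic AMP-raising pair, had its largest EB effect at 1 h. Its probe set 1449310_at then read 44.0, 39.4 and 38.6 in the EB arrays and 32.4, 25.8 and 45.5 in the Oil arrays, which overlapped. The log2 fold change was 0.27 (SE 0.21, 95% interval -0.16 to 0.70, adjusted p = 0.746), and the averaged one was 0.06 (interval -0.13 to 0.25). Ptger1, the calcium-linked receptor gene, was dim on both its probe sets. Of these 1450491_at had a geometric mean of 1.03, after values were raised to the floor, and was under the floor in 23 arrays. The other, 1445445_s_at, had a geometric mean of 2.83 and was under it in 7. At 12 h 1445445_s_at read 0.196, 3.45 and 2.002 in the EB arrays and 3.84, 5.75 and 5.32 in the Oil arrays. EB was lower without overlap, with a log2 fold change of -1.36 (SE 0.83, adjusted p = 0.957 in the fit without the filter).

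Hpgd encodes the dehydrogenase that inactivates PGE2 by oxidising its hydroxyl group. At 1 h its probe set 1419905_s_at read 41.8, 38.5 and 43.8 in the EB arrays and 38.0, 31.3 and 30.6 in the Oil arrays. The EB arrays were all higher, with a log2 fold change of 0.32 (SE 0.20, 95% interval -0.09 to 0.72, adjusted p = 0.681). In the same arrays the summed scaled signals of 3 cell-type marker lists were also higher in EB without overlap. These were the 10 kept microglia markers, at 1322 to 1589 in EB against 1029 to 1105 in Oil, the 12 kept astrocyte and radial glia markers, at 19510 to 20710 in EB against 16630 to 19060 in Oil, and the 6 kept border macrophage markers, at 586 to 736 in EB against 403 to 522 in Oil. None of these markers was called at 1 h. The median log2 fold changes of these lists at 1 h were 0.46, 0.21 and 0.50, beside 0.02 over all kept probe sets. Those of the other marker lists were 0.36 (leptomeningeal), 0.23 (choroid plexus and ependymal), 0.15 (endothelial), 0.12 (pan-neuronal), 0.09 (hypothalamic neuron) and 0.08 (mural). Of single kept probe sets 17.6% did not overlap at 1 h, and no such share was computed for sums of lists. The summed signal of the arachidonate release genes described below was also higher in EB without overlap, at 2308 to 2614 against 2129 to 2269 in Oil. The part of the 3 cell types in the Hpgd and Ptger3 values at 1 h was not tested. From 3 h on the EB and Oil arrays of Hpgd overlapped, and the averaged effect was 0.06 (interval -0.12 to 0.24). The dim Hpgd probe set 1419906_at had a geometric mean of 3.06.

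Counted over the 6 kept members, EB and Oil did not overlap for 2 at 1 h (Ptger3 and Hpgd), for none at 3, 6 and 12 h and for 1 at 24 h (Ptger4), with EB higher each time. Among the 9 dim probe sets EB was higher without overlap for 1439747_at of Ptges at 1 and 6 h and 1417263_at of Ptgs2 at 12 h, and lower for 1445445_s_at of Ptger1 and 1421073_a_at of Ptger4 at 12 h and both Ptgs2 probe sets at 24 h. Of all kept probe sets, 17.6% (1 h), 14% (3 h), 9.98% (6 h), 11.3% (12 h) and 24.1% (24 h) had treatments that did not overlap, in either direction. No such share was computed over dim probe sets, so their counts have none beside them. Overlap of the dim probe sets was judged on scaled signal that was not raised to the floor. The smallest two-sided p that an exact permutation of 3 EB and 3 Oil arrays allows is 0.1.

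**Figure D3:**
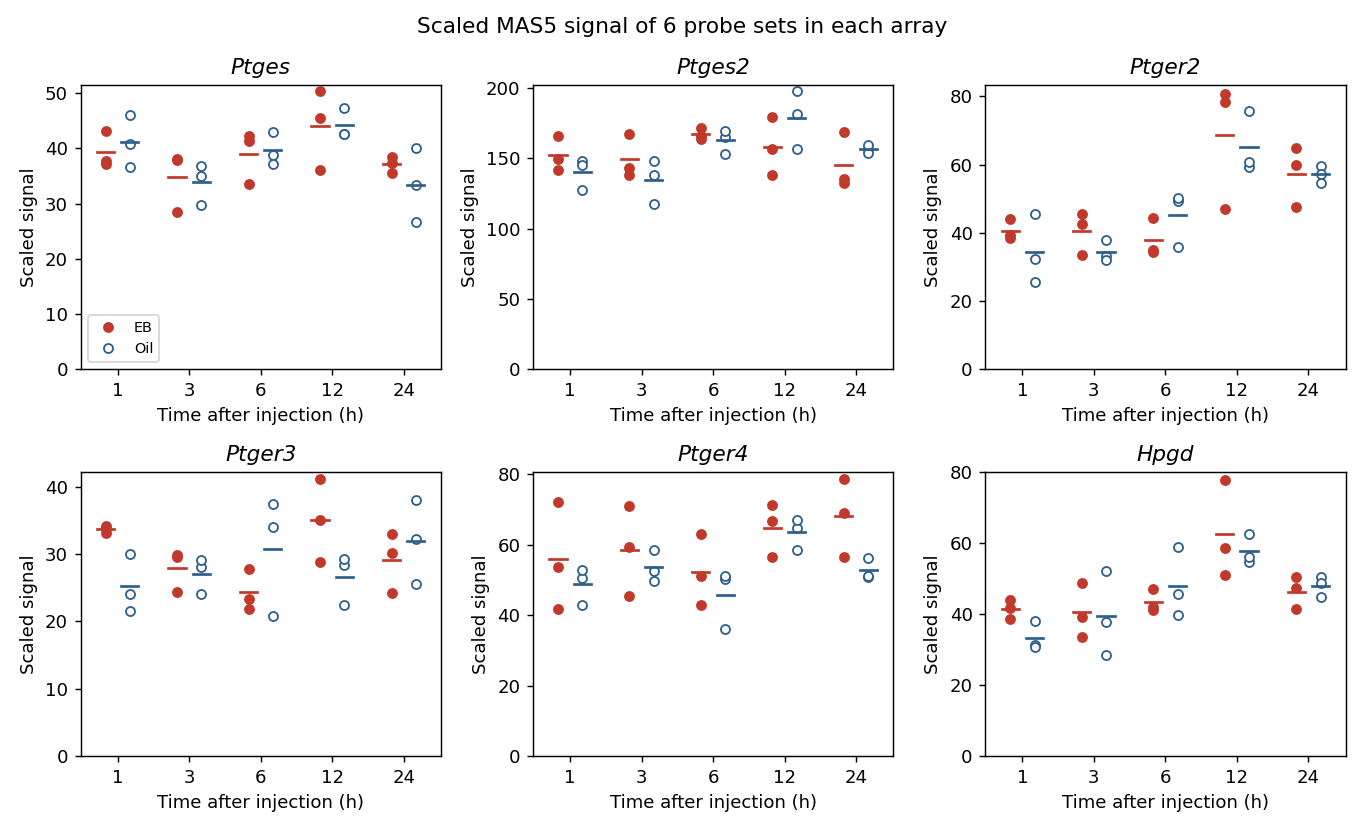
Scaled MAS5 signal (y axis, starting at 0) of the 6 kept probe sets in each array, by hours after injection on the x axis, with filled red circles for EB, open blue circles for Oil and a bar at each group's mean. Ptger2 and Hpgd are highest at 12 h in both treatments, and EB and Oil overlap at most times.

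More members were called over time than between EB and Oil, and so were more of all kept probe sets. Ptger2, Hpgd and Ptges2 changed with time among the Oil arrays, and Ptger2 among the EB arrays, so 3 of 6 members were called in Oil and 1 of 6 in EB. Over all kept probe sets 34.1% were called among the Oil arrays and 22.8% among the EB arrays. With 6 members, these counts do not set the members apart from the other probe sets. Time after injection was also the mouse's age, and the 2 cannot be told apart. Whether the time course differed between EB and Oil is the test of an EB effect that differs between times, which no member passed.

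Ptger2 was highest at 12 h in both treatments. Over the 5 times in order, the EB arrays averaged 40.7 ± 2.94, 40.6 ± 6.28, 38.0 ± 5.59, 68.6 ± 18.8 and 57.4 ± 8.87 (SD, n = 3 each; F = 5.98, adjusted p = 0.0114). The Oil arrays averaged 34.5 ± 10.02, 34.5 ± 3.09, 45.2 ± 8.002, 65.3 ± 8.98 and 57.2 ± 2.59 (F = 8.23, adjusted p = 0.00154). The individual 12 h arrays read 80.6, 78.3 and 47.0 in EB and 59.4, 75.6 and 60.8 in Oil, and the 24 h arrays 64.8, 59.8 and 47.6 in EB and 54.5, 59.7 and 57.4 in Oil. All 12 h and 24 h arrays of each treatment lay above all of its own 1 h arrays. From 1 h to 24 h the log2 fold change was 0.49 in EB (SE 0.21, adjusted p = 0.141) and 0.77 in Oil (SE 0.21, adjusted p = 0.0259), and only the Oil change passed. The Oil call was lost without any one of 5 of its 6 arrays (Oil 1 h replicate 1 or 2, or Oil 24 h replicate 1, 2 or 3; log2 fold changes of 0.57 to 0.98 and adjusted p up to 0.151 over the 30 fits without 1 array) and on unscaled signals (0.47, adjusted p = 0.238). It was the only call among the 6 members in that contrast, where 6.77% of all kept probe sets were called, and in EB, where 10.2% were, none of the 6 was called and 1, Ptger2, had an unadjusted p under 0.05.

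The call of Ptger2 over time in EB also rested on few arrays. Without EB 12 h replicate 1 the EB call was lost (F = 4.05, adjusted p = 0.0583), and without all 12 h arrays the EB course no longer passed (F = 3.51, adjusted p = 0.129) while the Oil course did (F = 6.36, adjusted p = 0.0252). In EB 12 h replicate 1 the summed microglia markers stood at 2429, against 1652 and 1894 in the other EB 12 h arrays and 1439 to 1635 in the Oil 12 h arrays, and the leptomeningeal markers at 12230, against 5049 and 10490 in the other EB 12 h arrays. The part of these cell types in the Ptger2 values was not tested.

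Hpgd also peaked at 12 h. The 12 h arrays read 77.5, 58.7 and 50.9 in EB and 54.5, 62.5 and 55.9 in Oil. All 6 lay above all of the 1 h arrays of either treatment. Over the 5 times in order, the Oil arrays averaged 33.3 ± 4.09, 39.4 ± 12.03, 47.9 ± 9.80, 57.6 ± 4.25 and 48.0 ± 2.95 (SD, n = 3 each; F = 4.91, adjusted p = 0.0168). The EB course did not pass (F = 3.14, adjusted p = 0.0925), and its 12 h log2 change from 1 h was 0.57 (SE 0.20) against 0.80 (SE 0.20) in Oil. Without the 12 h arrays the Oil course of Hpgd was no longer called (F = 3.17, adjusted p = 0.144), and without Oil 1 h replicate 3 its adjusted p was 0.053. The microglia markers moved in the same Oil arrays, by a median log2 change from 1 h of 0.20, 0.53, 0.56 and 0.34 through 3, 6, 12 and 24 h. Through the same times the leptomeningeal markers changed by 0.29, 0.51, 0.14 and -0.04 and the endothelial markers by -0.05, 0.07, 0.05 and -0.19. The border macrophage markers changed by 0.31, 0.42, 0.24 and -0.03 and the astrocyte and radial glia markers by 0.11, 0.11, 0.19 and 0.19. At 12 h the choroid plexus and ependymal markers had changed by 0.37, the hypothalamic neuron markers by 0.29, the pan-neuronal markers by 0.02 and the mural markers by -0.03. In the EB arrays the microglia markers changed by -0.10, -0.29, 0.35 and -0.29 and the astrocyte and radial glia markers by 0.04, -0.20, 0.17 and -0.23. The part of these cell types in the Hpgd course was not tested.

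Ptges2 varied less. Over the 5 times in order, the Oil arrays averaged 140.0 ± 11.2, 135 ± 15.5, 163 ± 8.55, 179 ± 20.8 and 157 ± 2.77 (SD, n = 3 each; F = 3.93, adjusted p = 0.0376). The EB arrays averaged between 145 ± 20.2 at 24 h and 167 ± 3.78 at 6 h and did not pass (F = 0.922, adjusted p = 0.585). The Oil call of Ptges2 was lost after quantile normalization (adjusted p = 0.132), without the 12 h arrays (adjusted p = 0.188) and in 7 of 30 fits that each left out 1 array.

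The 12 h peak stood on arrays that were brighter as a whole. On the deposited, unscaled signal the median change of all kept probe sets from 1 h to 12 h was 0.72 in EB and 0.81 in Oil on the log2 scale. On that signal Ptger2 changed by 1.39 in EB and 1.67 in Oil, and Hpgd by 1.24 in EB and 1.51 in Oil, above this median. On the scaled signal Ptger2 changed by 0.72 in EB and 0.95 in Oil, and after quantile normalization by 0.69 and 0.93. Ptges2 at 12 h, on the deposited signal, changed by 0.72 in EB, as the median of all probe sets did, and by 1.06 in Oil. The probe set 1460221_at shared by Ptges3 and Ptges3-ps depended on the scaling for its direction: from 1 h to 12 h it changed by -0.40 in EB and -0.57 in Oil on the scaled signal and by 0.28 and 0.14 on the deposited signal, in both cases less than the median of all. On the scaled signal it was called over time in both treatments (F = 6.87, adjusted p = 0.00641 in EB; F = 19.3, adjusted p = 5.89e-06 in Oil), whereas 1417998_at was not (adjusted p = 0.106 in EB and 0.159 in Oil).

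**Figure D4:**
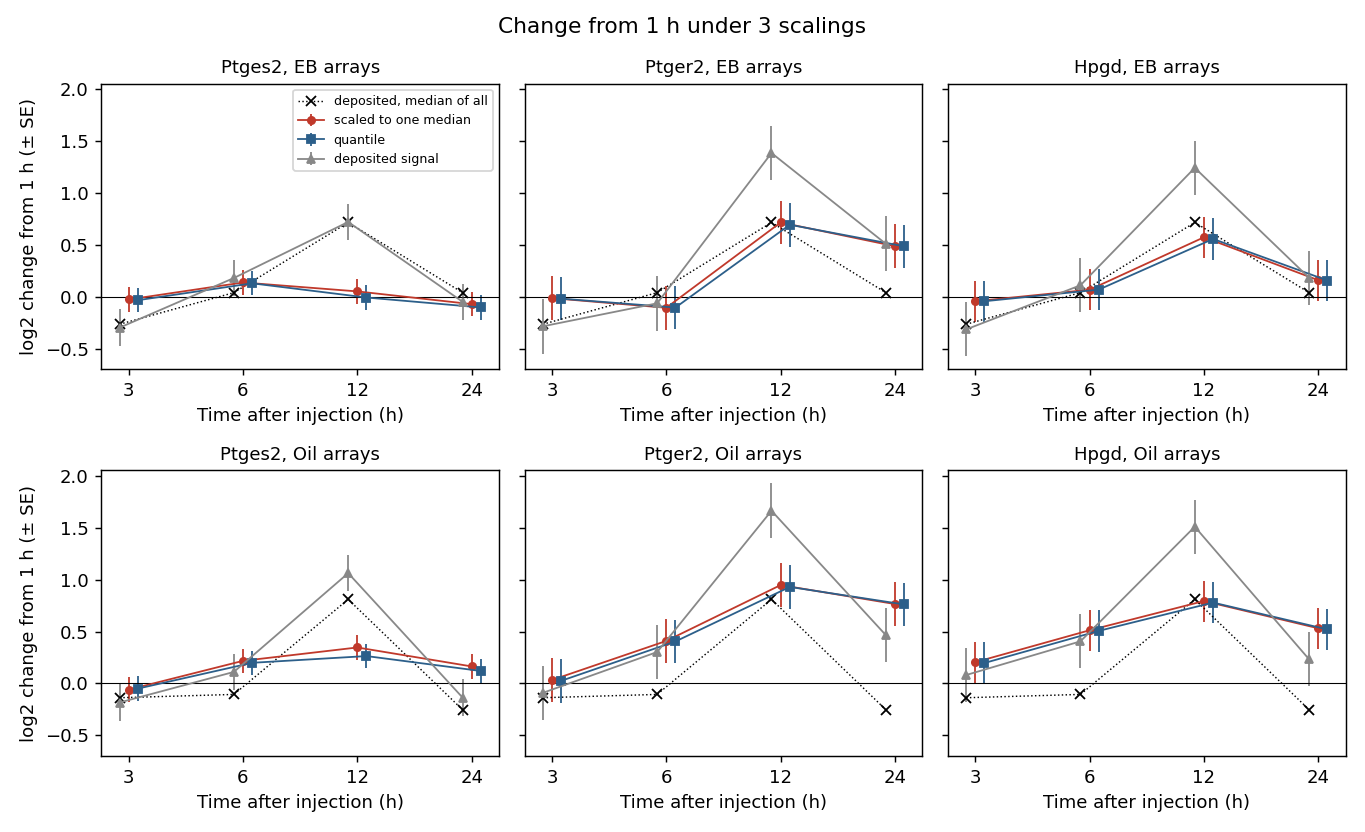
Log2 change from 1 h (y axis, points with SE bars) of Ptges2, Ptger2 and Hpgd in EB arrays (upper row) and Oil arrays (lower row) at 3, 6, 12 and 24 h after injection (x axis), under 3 scalings; crosses give the median change of all kept probe sets on the deposited signal. At 12 h the deposited signal of Ptger2 and Hpgd lies above the crosses in both treatments.

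Over the 30 arrays the scaled log2 signals of Ptger2 and Hpgd had a Pearson correlation of 0.639, those of Ptges2 and Hpgd 0.513 and those of Ptger2 and Ptges2 0.445. These points share the 10 groups and the 12 h arrays, so the values describe the arrays and carry no test. The genes most like Ptger2 over the 30 arrays were Rab27b (0.896), Acsl4 (0.890), Chml (0.866), Bcan (0.865) and Vstm2a (0.863). Those most like Hpgd were Gja1 (0.892), Nr3c1 (0.807), Agt (0.801), Cdh11 (0.794) and Csf1r (0.790), of which Gja1 is in the astrocyte marker list and Csf1r in the microglia marker list. Those most like Ptges2 were Ppargc1b (0.731), Zscan22 (0.703), BC048403 (0.690), Nefh (0.682) and Ptgis (0.678).

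The steps around PGE2 were read through lists of neighbouring genes, each gene by its brightest kept probe set. Calls over time in all lists stand beside those of all kept probe sets, 22.8% in EB and 34.1% in Oil. Of 18 genes of arachidonate release, the step before the cyclooxygenases, 11 were kept and none was called between EB and Oil. Over time the phospholipase gene Pla2g3 changed in EB (F = 6.28, adjusted p = 0.00939), and the monoacylglycerol hydrolase genes Abhd6 (F = 8.09, adjusted p = 0.00167) and Mgll (F = 4.85, adjusted p = 0.0176) changed in Oil. Of 7 kept genes among 13 other prostanoid synthases and receptors, Ptgds, the prostaglandin D synthase gene, fell at 24 h by 4.17 on the log2 scale (SE 0.60, adjusted p = 0.00025). The leptomeningeal markers given above fell in the same 3 arrays. The Ptgds effect differed between times (adjusted p = 0.0143), and Ptgds also changed over time in EB (F = 19.9, adjusted p = 1.53e-05), as did the prostamide synthase gene Prxl2b in both treatments (F = 4.87 in EB and 10.6 in Oil).

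Of 5 kept genes of prostaglandin transport and breakdown among 7, none was called between EB and Oil and Slco2a1, a prostaglandin transporter gene, changed over time in Oil (F = 4.63, adjusted p = 0.0211). The parallel lipoxygenase and leukotriene pathway had 5 of 14 genes kept, none called between EB and Oil and 2, Aloxe3 (F = 6.89) and Lta4h (F = 3.80), called over time in Oil. Downstream of the receptors, 23 of 24 genes of cyclic AMP and protein kinase A signalling were kept. At 24 h Akap5, an anchoring protein of the kinase, rose in EB (log2 fold change 0.43, SE 0.12, adjusted p = 0.0414) and Gnas, the stimulatory G protein subunit, fell (-0.35, SE 0.08, adjusted p = 0.00941). Over time 6 of the 23 were called in EB, where 22.8% of all kept probe sets were, and 14 in Oil, where 34.1% were. The largest F in Oil were those of Gnas (17.6), Adcy5 (14.9) and Adcy6 (11.8), and in EB those of Gnas (13.8), Adcy6 (12.3) and Adcy5 (8.58). The list's median log2 fold change at 24 h was -0.01, as over all kept probe sets.

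Of 16 inflammatory genes listed around the induction of Ptgs2, not all of them inducers of it, 8 were kept. The chemokine gene Cxcl1 among them rose in EB at 3 h (log2 fold change 0.89, SE 0.19, adjusted p = 0.0266). Over time Cebpb (F = 5.89) and Nfkbia (F = 7.02) of this list changed in EB and none in Oil. Of 18 immediate early genes 13 were kept and none was called between EB and Oil. Over time 7 of them were called in EB, with the largest F for Fos (20.6), Nr4a1 (19.5) and Egr1 (15.8), and 5 in Oil, led by Fos (10.3), Jun (8.59) and Nr4a1 (6.59). All 9 glucocorticoid-responsive genes were kept, and Anxa1, which encodes an inhibitor of arachidonate release, fell at 24 h in EB (log2 fold change -1.45, SE 0.32, adjusted p = 0.00928), with an effect that differed between times (adjusted p = 0.0338). Over time 7 of the 9 were called in EB, with the largest F for Anxa1 (12.7), Klf9 (7.05) and Cdkn1a (7.01), and 6 in Oil, led by Cdkn1a (8.78), Zbtb16 (4.87) and Klf9 (4.82).

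Among the cell-type marker lists other than the leptomeningeal and macrophage ones, 0 or 1 gene was called between EB and Oil at any single time. These single calls were all lower in EB at 24 h, Fabp7 of 12 kept astrocyte and radial glia markers (log2 fold change -0.33), Vtn of 9 mural cell markers (-1.05) and Stmn2 of 10 pan-neuronal markers (-0.32). The 10 microglia, 19 hypothalamic neuron, 12 endothelial and 8 choroid plexus and ependymal markers kept held none. Over time 8 astrocyte, 7 microglia, 5 hypothalamic neuron, 5 pan-neuronal, 5 endothelial, 6 mural and 0 choroid plexus markers were called in EB, and 8, 5, 9, 8, 2, 1 and 0 of the same lists in Oil. Of all kept probe sets 22.8% were called over time in EB and 34.1% in Oil. The endothelial calls in Oil were Cldn5 (F = 4.69) and Slc2a1 (F = 4.51), and the mural one was Abcc9 (F = 7.08). All 19 leptomeningeal and all 6 macrophage markers kept were called over time in EB, against 0 and 1, Cd163 (F = 6.03), in Oil. In EB the largest F values were those of Islr (21.8), Igf2 (21.2) and Slc6a13 (20) among leptomeningeal and Pf4 (31.8), F13a1 (25.4) and Lyve1 (22.1) among macrophage markers. The mural list was led in EB by Vtn (20.3), Tagln (7.72) and Rgs5 (7.62) and the endothelial list by Slc2a1 (12.1), Abcb1a (7.59) and Emcn (5.76). Astrocyte markers were led by Fabp7 (13.3), Gfap (11.7) and Slc1a3 (11.3) in EB and by Slc1a3 (17.5), Aqp4 (8.88) and Fabp7 (8.24) in Oil. Microglia markers were led by Ctss (10.7), C1qc (7.66) and Csf1r (6.97) in EB and by Ctss (7.33), C1qa (7.22) and C1qc (5.73) in Oil. Pan-neuronal markers were led by Stmn2 (15.9), Nefl (8.20) and Tubb3 (7.34) in EB and by Stmn2 (16.4), Map2 (7.96) and Elavl4 (7.88) in Oil. Hypothalamic neuropeptide genes were led by Oxt (9.75), Npy (8.29) and Ghrh (5.94) in EB and by Oxt (9.86), Sst (9.13) and Hcrt (5.19) in Oil.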

How the data were processed

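The authors deposited MAS5 signal intensity on a linear scale for 30 Affymetrix GeneChip mouse arrays, 1 mouse per array, and analysed them in GeneSpring. For the MAS5 version and for scaling, nothing is stated in the labels or methods. Every column matched a sample (0 without one), and no arrays were identical (0 pairs). Whether mice shared a litter is not stated. Here the intensities of an array were multiplied so that its median met the mean of all medians, values under 1 were raised to 1, and log2 followed. The 64 control probe sets and the dimmest 40% were dropped. The 10 groups were fitted with limma 3.58.1 (R 4.3.3), with eBayes and trend, with no block, and the fit was tested on simulated data. For each probe set the 10 groups share 1 estimate of the spread, and the number of arrays limits the precision. Dim probe sets were tested in a fit without the filter, and no detection calls were used. Of the 45037 probe sets 34945 carry 1 symbol in the platform annotation, 932 several and 9160 none. The members and gene lists were chosen with earlier results of these data known. All members are named; from each list, every called gene is named where 3 or fewer were called in a comparison, and otherwise the 3 with the largest change or, over time, the largest F. The lists' changes from 1 h to 24 h are not given. Alternatives covered scaling, floor, pseudocount, filter, weights on arrays, a block on replicate number, fits of fewer arrays, the methods' two-factor test and leaving out each array.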

Additional observations from a re-analysis of the deposited data

Results flagged for a closer look

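The dim Ptgs2 probe set 1417263_at drew attention because its EB effect lay in opposite directions at neighbouring times, with every EB array on one side of every Oil array. The log2 fold change was 1.57 at 12 h and -1.97 at 24 h. The difference between times did not pass in the limma fit without the filter (F = 2.72, adjusted p = 0.42). The other Ptgs2 probe set, 1417262_at, gave 0.42 and -0.78 at these times. Its arrays overlapped at 12 h, and at 24 h its EB arrays were also all lower, at 0.117 to 0.310 in EB against 0.345 to 5.05 in Oil, with 5 of 6 arrays under the floor of 1. Both probe sets read close to the floor in many arrays, where small absolute differences give large log2 values.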

How the results depend on the processing

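The counts of members called between EB and Oil, and for an EB effect that differed between times, stayed at 0 in each setting run and in each of the 30 fits that left out 1 array. Of 226 values in 11 other settings, 206 were scored as unchanged. The 226 pool counts of members with values of single genes. A count was scored as unchanged after a small move, such as from 3 to 2. A single gene was scored by its side of the threshold and, for a fold change, by its direction. The members called over time moved, from 1 in EB and 3 in Oil, to 6 and 6 on unscaled signals and to 6 and 6 by the methods' two-factor test, where 24259 and 23844 probe sets of all were called in EB and 25604 and 25472 in Oil. With the lowest 60% left out only Ptges2 was still tested, so the counts could reach no more than 1 and were 0 and 1; array weights gave 2 in EB, and leaving out the 12 h arrays, chosen after seeing the data, gave 0 and 1. For Oil from 1 h to 24 h the 1 member called became 0 on unscaled signals (Ptger2 0.47, adjusted p = 0.238), 0 by the methods' test (Ptger2 0.41, adjusted p = 0.607) and 2 with array weights. It was 0 with the lowest 60% left out, which removes Ptger2 itself. For the other settings the cause was not tested. Leaving out 1 array gave 0 to 1 members over time in EB, 2 to 3 in Oil, and 0 to 1 for Oil from 1 h to 24 h, where Ptger2 (0.57 to 0.98) was lost without Oil 1 h replicate 1 or 2 or any Oil 24 h array. Without the filter Ptges2 just missed in Oil (F = 4.18, adjusted p = 0.0503). The replicate number paired no arrays (15 correlations of deviations from -0.13 to 0.09), and with it as a block the counts were 0 between EB and Oil, 1 and 3 over time in EB and Oil and 1 for Oil from 1 h to 24 h, and no call changed.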
